A study of Gallus gallus with 18 samples.

Results

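The genes described here write, erase and read N6-methyladenosine (m6A), a methyl mark on adenosines inside messenger RNA. They are the writers METTL3, METTL14 and WTAP, the erasers FTO and ALKBH5, and the readers YTHDF1, YTHDF2, YTHDF3, YTHDC1 and YTHDC2. The 10 members were taken by name from a table of 23741 chicken genes. Of them, 9 were found under their own symbol, and METTL3 was found by its gene ID, 107050363, which the deposited table lists as LOC107050363 with the description of the catalytic subunit and which the RefSeq gene table names METTL3.

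In the nucleus METTL3 and METTL14 form the enzyme that puts the mark on new transcripts, and WTAP holds that pair at the sites where RNA is processed. FTO and ALKBH5 remove the methyl group, and proteins with a YTH domain bind it: YTHDC1 in the nucleus, where it acts on splicing and export, and the YTHDF proteins in the cytoplasm, where they act on decay and translation. In mice ALKBH5 and YTHDC2 are needed for the formation of sperm. The methyl group comes from S-adenosylmethionine, which the folate and methionine cycles help to make.

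Poly(A) RNA was sequenced from Arbor Acres broiler breeders in 6 groups of 3 libraries. By the labels, sperm and liver came from roosters fed a corn and soybean diet for life. Per kg it held 5 mg (folic acid excess, FE) or 0.25 mg (folic acid control, FCON) of folic acid. These sperm and liver samples are labelled 35 weeks old, except sperm FE replicate 3, labelled 36 weeks. Day-old livers came from the chicks of FE and of FCON fathers, each library being a pool of RNA from 4 chicks, and the hens were fed a diet that also held folic acid. The libraries of a group carry separate bird or pool numbers, and the labels do not tie a bird's sperm to its liver.

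Library totals ran between 17.0 M and 43.1 M estimated counts (M, mega), and several libraries stood apart. Nuclear rRNA genes took 32.8 to 60.5% of the counts in libraries labelled rooster liver FE, against 3.02 to 8.75% in rooster liver FCON. They took 50.2% of the counts of sperm FE replicate 2. Genes of the W chromosome, which hens carry and roosters lack, had 0 to 2.07 CPM (counts scaled to the library total) in libraries labelled rooster liver FE, against 1015 to 1117 CPM in those labelled rooster liver FCON. The day-old pools numbered 2 had 1299 (FE) and 963 (FCON) CPM of W genes, and the other 4 pools 2.59 to 9.34. The libraries labelled rooster liver FCON thus held W counts within the range of the pools numbered 2, in conflict with the label rooster. The names FCON rooster and FCON rooster liver are kept below as labels only. The 12 hepatocyte markers summed to 42073 to 65136 scaled CPM in rooster liver FE and 86591 to 87712 in rooster liver FCON. In sperm the same markers summed to 607 to 1781 (FE) and 858 to 1770 (FCON), and 9 spermatid markers to 606 to 889 (FE) and 178 to 1178 (FCON), against 24.8 to 49.2 in rooster liver. Of these markers DNAH5 was at 0 in every group. Markers of some other cells are given beside the comparisons they move with. For every comparison of rooster livers by diet, folic acid, W counts, rRNA share and the mix of cells therefore cannot be told apart.

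Levels are given as scaled FPKM: the authors' FPKM, per kilobase of transcript and relative to the library total, divided by a scaling factor per library (TMM). The factor evens out differences in makeup between libraries, the rRNA share among them, and assumes that most genes are unchanged. It did not follow rRNA alone. Sperm FCON replicate 1 had a factor of 0.468 at 10.6% rRNA, and sperm FE replicate 1 had 0.584 at 5.85%. Sperm FCON replicate 2 had 1.06 at 4.71%. Comparisons of levels between libraries rest on this assumption, and some orders of libraries differ in the authors' FPKM before scaling. In these bulk samples fewer cells of a type and less RNA per cell cannot be told apart.

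METTL3, the catalytic subunit, had the highest level of the 10 genes in 17 of 18 libraries. It had 54.5, 86.2 and 52.5 scaled FPKM in FE sperm, against 32.6, 51.6 and 27.1 in FCON sperm. In rooster liver it had 27.3, 16.0 and 18.3 (FE), against 27.1, 28.6 and 30.6 (FCON). Day-old livers had 29.5, 24.2 and 21.2 (FE), against 16.0, 21.3 and 19.6 (FCON). On this scale all 3 FE sperm libraries were thus above all FCON sperm libraries and above every liver library. In the authors' FPKM before scaling they were not. There METTL3 had 31.8, 32.1 and 56.7 in FE sperm, 15.2, 54.8 and 22.1 in FCON sperm, and up to 45.35 in liver. In the order of scaled group means, FE sperm stood first and apart, and each later pair of neighbours overlapped. Per the deposited table METTL3 lies at 2473700 to 2495636 on the forward strand. The chromosome is not printed, because it differs between sources.

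METTL14, the RNA-binding partner of METTL3, was far lower. FE sperm had 2.76, 2.98 and 2.11 scaled FPKM and FCON sperm 5.13, 4.87 and 3.35, with no overlap between the diets. Rooster livers had 0.863, 3.27 and 1.52 (FE), against 1.75, 1.91 and 2.13 (FCON), so the FE livers lay on both sides of the FCON livers. Day-old livers ranged over 2.20 to 3.71 (FE) and 1.82 to 2.97 (FCON) and overlapped. The gene (422684) spans 54976333 to 54999992 on chromosome 4, and in its group order no 2 neighbours were without overlap.

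WTAP, the adaptor of the writer complex, was the member with the clearest group. Rooster livers labelled FE had 13.0, 16.6 and 16.3 scaled FPKM, against 3.16, 7.24 and 3.94 in those labelled FCON. The other groups lay between 2.93 and 7.90: sperm at 4.28, 2.93 and 7.90 (FE) and 7.43, 6.14 and 6.95 (FCON), and day-old liver at 7.34, 7.38 and 5.74 (FE) and 4.73, 3.70 and 7.05 (FCON). On this scale the lowest FE rooster liver was thus above each of the other 15 libraries. In the authors' FPKM before scaling it had 7.37, against 10.91 in rooster liver FCON replicate 2 and 13.05 in FE chick pool 2. There the FE and FCON rooster livers thus overlapped. WTAP exceeded METTL3 in rooster liver FE replicate 2. WTAP (gene 421588) spans 45712924 to 45736679 on chromosome 3.

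FTO (gene 415718, chromosome 11, 4651479 to 4873687) was at or near 0 throughout. It held 74 counts in all 18 libraries together, and 11 libraries, among them all 6 day-old pools, had 0. Rooster livers had 0, 19 and 12 counts (FE), against 11, 11 and 0 (FCON). Sperm had 8, 0 and 6 (FE), against 0, 7 and 0 (FCON). In the libraries at 0, a count of 0 allows a level of up to 0.0696 to 0.141 CPM (3 counts of the library total, counting error only). FTO passed the filter on low values in no comparison and was not tested, and no difference was detectable at this depth.

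ALKBH5, the other eraser, was the member with the second-highest mean in sperm. FE sperm had 25.2, 24.3 and 13.2 scaled FPKM, against 19.2, 18.7 and 7.18 in FCON sperm. On this scale replicate 3 was lowest under both diets. In the authors' FPKM before scaling FE sperm had 14.7, 9.04 and 14.2, with replicate 2 lowest. There FCON sperm had 9.01, 19.8 and 5.86, on both sides of FCON rooster livers at 8.71, 8.20 and 8.30. Rooster livers had 10.2, 3.43 and 7.23 (FE), against 5.55, 5.44 and 5.60 (FCON). The FCON livers were nearly equal, and the FE livers lay on both sides of them. Day-old livers ranged over 4.82 to 5.67 (FE) and 4.56 to 8.57 (FCON). The gene (770703, chromosome 14, 5436664 to 5454222) overlaps LLGL1 on the same strand by 2743 bases. LLGL1 holds 7698 counts in all libraries together, and how reads in the overlap were assigned is not given in the sources used here.

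Among the cytoplasmic readers, YTHDF2, which brings marked transcripts to the deadenylase that shortens their tails, was highest in sperm and YTHDF1, which acts on translation, was not. YTHDF2 had 10.1, 13.9 and 7.22 scaled FPKM in FE sperm, against 7.69, 5.36 and 7.76 in FCON sperm. Livers were lower: 2.96, 2.16 and 3.33 in FE roosters, against 3.06, 2.87 and 3.08 in FCON roosters. In day-old chicks it had 3.18, 2.08 and 3.81 (FE), against 4.62, 5.16 and 4.88 (FCON). On this scale every sperm library was above every liver library, and the FCON chicks stood above all other livers. In the authors' FPKM before scaling sperm and liver overlapped, with 3.6 in FCON sperm replicate 1 and 6.11 in FCON chick pool 1. YTHDF2 (gene 419583, chromosome 23, 2380599 to 2393626) overlaps the opposite-strand gene LOC107055017 by 582 bases. That gene holds 614 counts in all libraries, and without stated strand marking the reads of the 2 cannot be told apart.

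YTHDF1 (gene 419238, chromosome 20, 8701741 to 8714334) had the narrowest spread of the tested members, 2.60-fold between the lowest and the highest library. It had 5.43, 5.32 and 4.51 scaled FPKM in FE rooster livers, against 3.99, 3.67 and 3.51 in FCON rooster livers, without overlap. In the authors' FPKM before scaling the order was the opposite, also without overlap. There FE rooster livers had 3.08, 4.92 and 4.82, against 6.27, 5.53 and 5.20 in FCON rooster livers. Day-old livers had 3.26, 4.57 and 4.04 (FE), against 3.23, 3.10 and 5.82 (FCON). Sperm had 2.52, 3.14 and 4.64 (FE), against 2.24, 3.97 and 2.88 (FCON). No 2 neighbours in its group order were without overlap.

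YTHDF3, which shares targets with the other YTHDF proteins, lay at 2.62 to 5.21 scaled FPKM in liver and at 0.291 to 3.09 in sperm. Its lowest value, 0.291 in FE sperm replicate 1, rests on 15 counts. The gene (421145) spans 113842567 to 113864468 on chromosome 2.

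The nuclear reader YTHDC1 (gene 422656, chromosome 4, 51746599 to 51768989) had its highest scaled means in rooster liver, where the FE libraries overlapped the FE day-old livers. In the authors' FPKM before scaling FE rooster livers had 1.80, 4.79 and 4.06, against 3.87, 5.43 and 5.39 in FE day-old livers. Rooster livers had 3.17, 5.18 and 3.80 scaled FPKM (FE), against 4.74, 4.93 and 4.58 (FCON). Day-old livers had 2.83, 3.07 and 3.70 (FE), against 2.08, 1.65 and 2.31 (FCON), and all 3 FE pools were above all FCON pools. Sperm had 1.04, 1.24 and 2.16 (FE), against 1.58, 2.90 and 2.38 (FCON).

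YTHDC2, a helicase with a YTH domain, was the lowest member after FTO, and the last in 1 library. FE rooster livers had 0.899, 1.45 and 1.30 scaled FPKM, against 1.75, 1.57 and 1.57 in FCON rooster livers, which stood first in its group order without overlap. Day-old livers had 1.35, 1.02 and 1.33 (FE), against 0.741, 0.624 and 1.26 (FCON). Sperm had 0.0342, 0.403 and 0.843 (FE), against 0.150, 1.27 and 0.601 (FCON), on 4 to 260 counts. The gene (415602) is the only member on the Z chromosome (45785714 to 45824755), of which hens carry 1 copy.

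**Figure D1:**
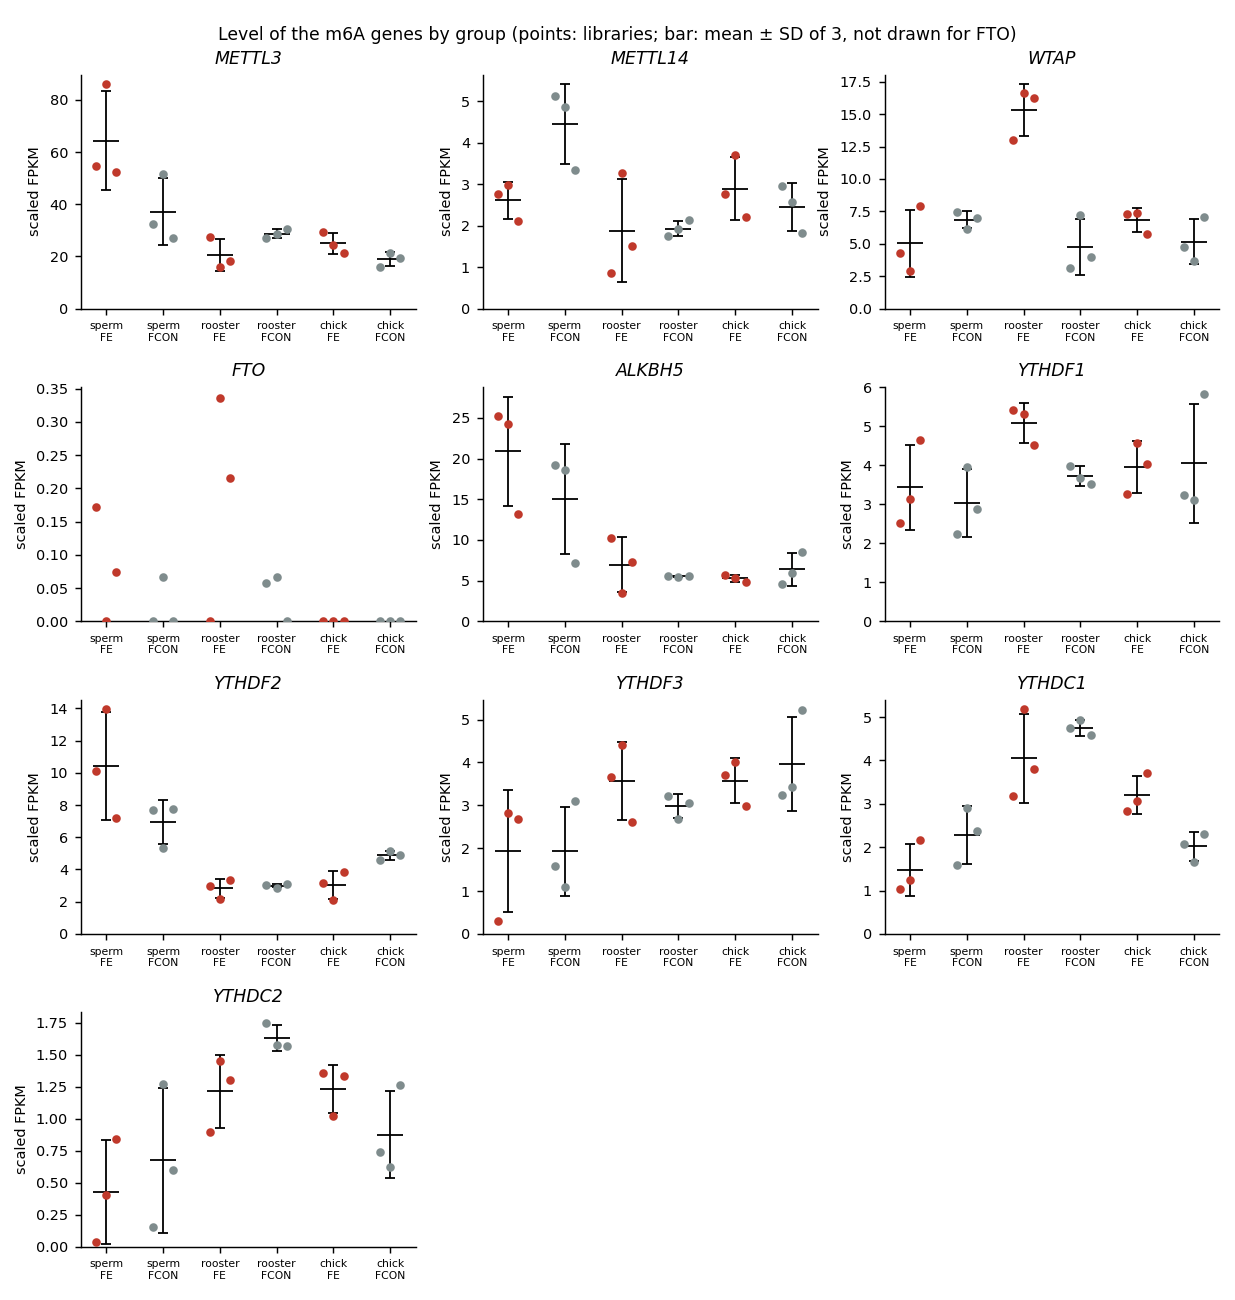
Scaled FPKM of each m6A gene (linear axes from 0, a scale of its own per gene) in 6 groups: sperm, rooster liver and day-old liver (chick), FE in red and FCON in grey. Points are libraries and bars are mean ± SD of 3, not drawn for FTO, which is at 0 in 11 libraries. METTL3 lies between 16.0 and 86.2 in all libraries, WTAP stands out in FE rooster liver (13.0 to 16.6), and METTL3, ALKBH5 and YTHDF2 have their highest means in FE sperm.

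The first comparison asks whether the folic acid diet went with other levels of these genes in the rooster's own liver. WTAP rose in libraries labelled FE, to 15.3 ± 2.01 scaled FPKM, against 4.78 ± 2.17 in those labelled FCON (SD, n = 3 each), 3.40-fold or 1.77 log2 (SE 0.32, adjusted p = 0.00479, edgeR quasi-likelihood test with Benjamini-Hochberg adjustment). YTHDF1 rose to 5.09 ± 0.501, against 3.73 ± 0.246, 0.54 log2 (SE 0.13, adjusted p = 0.0180). No member was called lower on the TMM scale, and 7 did not pass the test. The 2 called of 9 tested, 22.2%, compare with 41.5% of all 10291 genes tested here, 20.4% called higher and 21.1% lower. The groups did not overlap for 3 members (WTAP, YTHDF1 and YTHDC2), against 57.8% of all genes. Overlap is counted on the scale of each fit, whose factors come from its own libraries, so pairs of libraries that nearly touch can fall otherwise than in the levels above. The members' median was 0.07 log2, against -0.03 over all genes.

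For the others the intervals give the spread between these libraries on the TMM scale only. On other scales some values lay outside them. With limma on the authors' FPKM, YTHDF2 stood at -0.74 and -0.96, where the median of all genes was -0.76 and -1.01. METTL3 differed by -0.40 log2 (95% interval -0.88 to 0.08, adjusted p = 0.158), and without FE replicate 1, its highest FE library, by -0.65 (adjusted p = 0.00392). ALKBH5 differed by 0.42 (interval -0.42 to 1.26), and by 0.76 without FE replicate 2 (adjusted p = 0.0127). The interval was widest for METTL14 (-1.01 to 1.14) and narrow for YTHDF2 (-0.49 to 0.49). YTHDF3 (0.35, adjusted p = 0.254), YTHDC1 (-0.14, adjusted p = 0.578) and YTHDC2 (-0.31, adjusted p = 0.292) did not pass.

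The scale matters here, because rRNA fills the FE libraries. With library totals alone the median of all genes stood at -0.94, WTAP at 0.89 (adjusted p = 0.0921) and YTHDF1, with its direction turned, at -0.40 (adjusted p = 0.273). On that scale no member was called higher and 3 were called lower: METTL3 (-1.39, adjusted p = 0.00226), YTHDC1 (-1.01, adjusted p = 0.0399) and YTHDC2 (-1.18, adjusted p = 0.0370). Relative to the median of all genes WTAP stood 1.55 to 1.92 log2 higher under each of the 9 settings compared. YTHDF1 stood 0.41 to 0.63 log2 higher. Taking off that median cancels the scale of a setting, so this agreement was largely fixed in advance. It cannot tell which scale holds. The WTAP call held without any 1 library (1.48 to 2.13 log2, adjusted p = 0.00115 to 0.0247). The YTHDF1 call was lost without FCON replicate 1 (adjusted p = 0.0708), 2 (0.0960) or 3 (0.112).

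Markers of other cells moved with the same libraries. The counts of markers called stand beside 41.5% of all genes called in this comparison. Of 11 tested hepatocyte markers 8 were called lower and 1 higher in FE. Of 8 macrophage markers 5 were called higher, with a sum of 850 to 928 scaled CPM in FE and 577 to 592 in FCON. Of 6 T and NK cell markers 5 were called higher, with 322 to 426 in FE and 97.8 to 100.3 in FCON. Of 4 tested B and plasma cell markers 3 were called higher and 1 lower, and the list summed to 102 to 107 in FE and 30.0 to 34.1 in FCON. Of 4 tested bile duct epithelium markers 1 was called higher and 1 lower, and the list summed to 52.8 to 58.8 in FE and 118 to 128 in FCON. No defining marker of these lists was at 0 in either group. Their part in the levels of WTAP and YTHDF1 was not tested.

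The list of wider m6A genes holds 48 symbols of writer complex members, other readers, their partners, the methyl donor enzymes and enzymes linked to the same base in DNA, of which 42 were found and 37 tested. In FE livers 8 were called higher and 3 lower, 29.7% in all, against 41.5% of all genes, with a median of 0.01 log2, against -0.03 over all genes. Those with the smallest p were CNOT7, a tail-shortening enzyme of the complex that YTHDF2 calls in (0.86 log2, adjusted p = 4.75e-04), and ELAVL1, which stabilises transcripts (0.72, adjusted p = 8.07e-04). They also included IGF2BP3, a reader that protects its targets from decay (-2.85, adjusted p = 8.76e-04), and RIDA, which in human cells links YTHDF2 to an RNA-cutting enzyme (0.58, adjusted p = 0.00164). IGF2BP3 had 0.176, 0.303 and 0.477 scaled FPKM in FE livers, against 2.58, 2.57 and 2.45 in FCON livers.

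Of the other subunits of the writer complex, VIRMA, the largest scaffold (deposited as KIAA1429), fell by 0.55 log2 (adjusted p = 0.0156), in the opposite direction to WTAP. RBM15, which guides the complex to RNA, differed by -0.02, and ZC3H13, which keeps it in the nucleus, by 0.17. The ubiquitin ligase homologue CBLL1 differed by -0.79 (adjusted p = 0.136), and METTL16, a separate m6A enzyme, by -0.40. IGF2BP1 (-0.21) and IGF2BP2 (0.29) did not pass either. These values are on the TMM scale. The list was not refitted on library totals, where the median of all genes stood at -0.94 and smaller positive values can turn.

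In day-old chicks the question is whether the father's diet went with other levels. No member passed the test, with 9 tested, against 0 of 9700 genes (0%). At an unadjusted p under 0.05 there were 0 members and 679 genes (7%), and DESeq2 called 0 members as well. The widest differences were YTHDF2 at -0.69 log2 (95% interval -1.45 to 0.06, adjusted p = 0.703) and YTHDC1 at 0.66 (interval -0.01 to 1.33, adjusted p = 0.701). Their means were 3.03 ± 0.876 scaled FPKM in FE chicks and 4.89 ± 0.271 in FCON chicks for YTHDF2. For YTHDC1 they were 3.20 ± 0.449 in FE chicks and 2.01 ± 0.334 in FCON chicks (SD, n = 3 each). METTL3 differed by 0.38 (interval -0.22 to 0.98) and WTAP by 0.39 (interval -0.34 to 1.11).

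Groups without overlap were METTL3, YTHDF2 and YTHDC1, 3 of 9, against 14.1% of all genes, although the nearest METTL3 libraries almost touch (21.2 scaled FPKM in FE, 21.3 in FCON). YTHDC2 (0.49), METTL14 (0.22), ALKBH5 (-0.28), YTHDF3 (-0.16) and YTHDF1 (-0.04) overlapped. The median was 0.22 log2 for members, against -0.01 for all genes. Without both pools numbered 2, which hold the W counts, no member passed, YTHDC1 stood at 0.61 and YTHDF2 at -0.41. Of 37 wider genes tested none was called. Those with the smallest p were EIF3H (-0.81), EIF3B (-0.66), AHCY (-0.59) and RBM15 (0.65), all with adjusted p between 0.701 and 0.726.

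The difference between the 2 livers' diet effects was tested itself, over 12 libraries. No member was called, against 18.7% of 11002 genes, and 3 members had an unadjusted p under 0.05, against 34.3% of genes. WTAP came nearest: its diet effect was 1.37 log2 larger in roosters than in chicks (SE 0.45, adjusted p = 0.0512). Without rooster FCON replicate 2, its highest FCON library, the value was 1.79 (adjusted p = 0.0164). Without FCON chick pool 2 it was 1.56 (adjusted p = 0.0319), and DESeq2 called it (adjusted p = 0.0167). For METTL3 (-0.80, adjusted p = 0.0973) and YTHDC1 (-0.81, adjusted p = 0.0987) the effect was lower in roosters than in chicks without passing. METTL3 passed without rooster FE replicate 1 (-1.05, adjusted p = 0.0286). With library totals alone METTL3 (-2.20, adjusted p = 6.42e-04), YTHDC1 (-2.08, adjusted p = 0.00537) and YTHDC2 (-2.07, adjusted p = 0.0129) were called lower. The median of all genes was -1.39 there. The same members were called lower with both limma fits, and WTAP was called on none of these scales. Of the wider list 3 of 37 were called: IGF2BP3 (-3.06), the S-adenosylhomocysteine hydrolase AHCY (0.95) and the splicing factor SRSF10 (0.73).

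The 2 diets are next compared in the sperm libraries, which did not hold sperm transcripts alone. The epithelial keratin KRT19 had 111 to 236 scaled FPKM in FE and 80.4 to 338 in FCON. EPCAM, also on the bile duct epithelium list, had 2.29 to 15.2 in FE and 5.6 to 9.56 in FCON (authors' FPKM before scaling). Spermatid markers summed to 606 to 889 scaled CPM (FE) and 178 to 1178 (FCON), and rRNA took 50.2% of FE replicate 2. The part of the cell mix in the differences below was not tested. Of 8 members tested (FTO and YTHDC2 were too low) none passed, against 0 of 8811 genes (0%). There were 0 members and 296 genes (3.36%) at an unadjusted p under 0.05, and DESeq2 called 0 members. METTL14 was the only member without overlap on the scale of this fit, against 10.3% of genes. It had 2.62 ± 0.451 scaled FPKM in FE sperm and 4.45 ± 0.963 in FCON sperm (SD, n = 3 each), a difference of -0.86 log2 (95% interval -1.86 to 0.14, adjusted p = 0.902). METTL3, whose nearest FE and FCON libraries had 52.5 and 51.6 scaled FPKM, differed the other way by 0.71 (interval -0.25 to 1.68). YTHDC1 (-0.70), WTAP (-0.53), YTHDF2 (0.50), ALKBH5 (0.36), YTHDF1 (0.10) and YTHDF3 (-0.03) had intervals that reach 0 as well. Of the wider list 33 were tested and 0 called, with the smallest p for EIF3A (-1.01), NXF1 (0.67), ZC3H13 (-0.88) and N6AMT1 (-0.58).

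**Figure D2:**
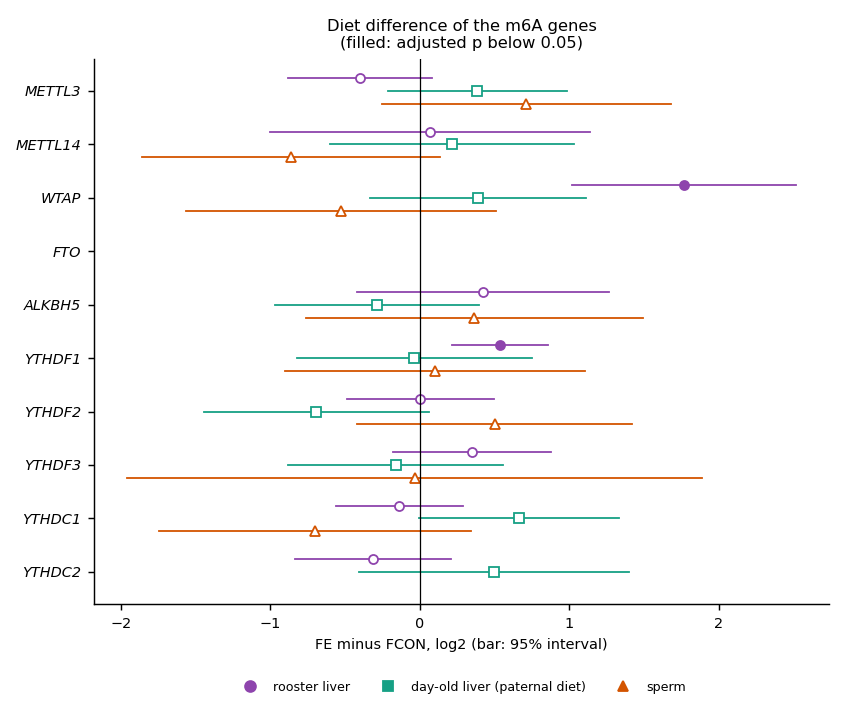
FE minus FCON difference of each m6A gene in log2 units, with its 95% interval, in rooster liver (circles), day-old liver by paternal diet (squares) and sperm (triangles). Filled symbols have an adjusted p below 0.05. Both filled points are in rooster liver, WTAP at 1.77 and YTHDF1 at 0.54 (YTHDF1 stood at -0.40 with library totals alone, where the median of all genes was -0.94), and FTO has no point because it was not tested.

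Sperm and rooster liver were set against each other within each diet. Under FE, METTL3 was higher in sperm by 1.67 log2 (SE 0.32, adjusted p = 0.00314), ALKBH5 by 1.60 (SE 0.43, adjusted p = 0.0155) and YTHDF2 by 1.90 (SE 0.35, adjusted p = 0.00287). WTAP (-1.57, SE 0.39, adjusted p = 0.0112) and YTHDC1 (-1.42, SE 0.39, adjusted p = 0.0171) were lower in sperm. The 5 of 8 called, 3 higher and 2 lower, compare with 52.8% of 9374 genes, 29.9% higher and 22.9% lower, and the 5 without overlap with 66.4%. METTL14 (0.48), YTHDF1 (-0.53) and YTHDF3 (-0.84) did not pass, with adjusted p between 0.217 and 0.497.

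Under FCON, METTL14 was higher in sperm by 1.22 log2 (SE 0.28, adjusted p = 0.0129), ALKBH5 by 1.47 (SE 0.40, adjusted p = 0.0244) and YTHDF2 by 1.22 (SE 0.23, adjusted p = 0.00625). YTHDC1 was lower in sperm (-1.02, SE 0.27, adjusted p = 0.0212). The 4 of 9 called, 3 higher and 1 lower, compare with 49.6% of 10765 genes, 24.1% higher and 25.5% lower, and the 5 without overlap with 66.8%. METTL3 (0.39, interval -0.32 to 1.10), WTAP (0.54, interval -0.31 to 1.39), YTHDC2 (-1.21, interval -2.85 to 0.42), YTHDF3 (-0.62) and YTHDF1 (-0.27) did not pass. METTL3 and WTAP thus passed under FE and METTL14 under FCON, and the difference between the diets in these tissue contrasts was not tested.

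Markers of other cells and W counts moved with these comparisons. W genes had 9.74 to 22.4 CPM in FCON sperm, against 1015 to 1117 in libraries labelled rooster liver FCON. Under FE they had 5.02 to 32.6 CPM in sperm and 0 to 2.07 in rooster liver. Under FCON the tissue and the W counts therefore cannot be told apart. Under FE nuclear rRNA took 5.85, 50.2 and 2.35% of the counts in sperm, against 32.8 to 60.5% in rooster liver. Under FE tissue therefore cannot be told apart fully from the rRNA share. The 5 bile duct epithelium markers summed to 225 to 496 scaled CPM in FE sperm, against 52.8 to 58.8 in FE rooster livers, and 2 of 4 tested were called higher. They summed to 279 to 637 in FCON sperm, against 118 to 128 in FCON rooster livers, with 3 of 5 called higher and 1 lower. The epithelial keratin KRT19 had 158, 111 and 236 scaled FPKM in FE sperm, against 12.2, 8.74 and 7.23 in FE rooster livers. It had 80.4, 122 and 338 in FCON sperm, against 4.88, 4.14 and 4.21 in FCON rooster livers. The 6 T and NK cell markers summed to 159 to 455 in FE sperm, against 322 to 426 in FE rooster livers, and to 64.6 to 276 in FCON sperm, against 97.8 to 100.3 in FCON rooster livers. Of 5 tested, 0 were called higher in sperm under either diet, with 3 lower under FE and 2 lower under FCON. Of all genes 52.8% were called under FE and 49.6% under FCON. The shares were 60.0 and 40.0% for tested T and NK cell markers, and 50.0 and 80.0% for tested bile duct epithelium markers. GNLY had 2634, 4635 and 3942 counts in FE sperm, against 61, 12 and 85 for CD3D. In FCON sperm GNLY had 672, 9684 and 1991, against 46, 113 and 167 for CD3D. IL7R was the one of the 6 markers at 0 in sperm under either diet. All 11 tested hepatocyte and all 8 macrophage markers were called lower in sperm under both diets. The 8 markers of testis somatic cells and the genital tract summed to 135 to 293 scaled CPM in FE sperm, against 645 to 853 in FE rooster livers. Under FCON they summed to 144 to 309 in sperm, against 519 to 564 in rooster livers. The part of these cells in the levels of the m6A genes was not tested.

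ALKBH5, YTHDF2 and YTHDC1 passed under both diets, in the same direction each time. The FE comparison shares its liver libraries with the diet comparison of rooster livers, and the FCON comparison shares the others. With library totals alone these directions were kept, but no member passed under FE, and under FCON ALKBH5 stood at 0.45 and YTHDF2 at 0.18 without passing, where the median of all genes was -1.06. All 5 FE calls held without sperm FE replicate 2, the library rich in rRNA. The other FE sperm libraries had 5.85 and 2.35% nuclear rRNA, against 32.8 to 60.5% in FE rooster livers. Tissue and rRNA share therefore cannot be told apart in that fit. Under FE the ALKBH5 call was lost without rooster FE replicate 2 (adjusted p = 0.0514) or 3 (0.0578). Under FCON the calls of METTL14, ALKBH5 and YTHDF2 were lost without any 1 of the 3 rooster libraries (adjusted p = 0.0691 to 0.124), and that of YTHDC1 without sperm FCON replicate 3 (0.0573). With replicate number as a block the FCON calls of METTL14 (adjusted p = 0.0643) and ALKBH5 (0.0524) were lost.

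Of the wider list under FE, 5 of 34 tested genes were called higher in sperm and 8 lower, 38.2% in all, against 52.8% of all genes (median -0.24 log2, against 0.10). Under FCON 4 of 37 were called higher and 9 lower, 35.1% in all, against 49.6% of all genes (median -0.18, against -0.08). MAT1A, the liver form of the enzyme that makes S-adenosylmethionine, was lower in sperm (-8.37 log2 under FE and -7.41 under FCON). AHCY, which clears the product of methylation, was lower too (-5.10 under FE and -4.52 under FCON), as was RIDA (-3.44 and -3.31). MAT2A, the form of the enzyme used by most other tissues, was higher in sperm by 2.57 under FE and stood at 0.45 under FCON (adjusted p = 0.268). Its levels were 32.5 ± 1.84 scaled FPKM in FE sperm and 5.53 ± 1.88 in FE rooster livers, and 21.1 ± 7.30 in FCON sperm and 15.6 ± 1.73 in FCON rooster livers (SD, n = 3 each). N6AMT1 was higher in sperm by 2.12 under FCON.

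Within the writer complex RBM15 was higher in sperm by 2.00 (FE, adjusted p = 0.00971) and 1.55 log2 (FCON, adjusted p = 0.00325). METTL16 was lower under FCON (-1.43, adjusted p = 0.0110) and stood at -1.10 under FE (adjusted p = 0.0969). ZC3H13 (-1.20 under FE, -0.33 under FCON) and CBLL1 (1.08 and 0.58) did not pass. VIRMA stood at -0.63 under FCON without passing and was not tested under FE. The reader IGF2BP2 was lower in sperm (-1.85 under FE and -1.50 under FCON). IGF2BP1 had counts in 1 of 3 sperm libraries under each diet, 7 in FE and 11 in FCON, against 65 to 97 in FE rooster livers and 296 to 404 in FCON rooster livers. IGF2BP3 had 4, 0 and 37 counts in FE sperm and 0, 0 and 15 in FCON sperm.

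**Figure D3:**
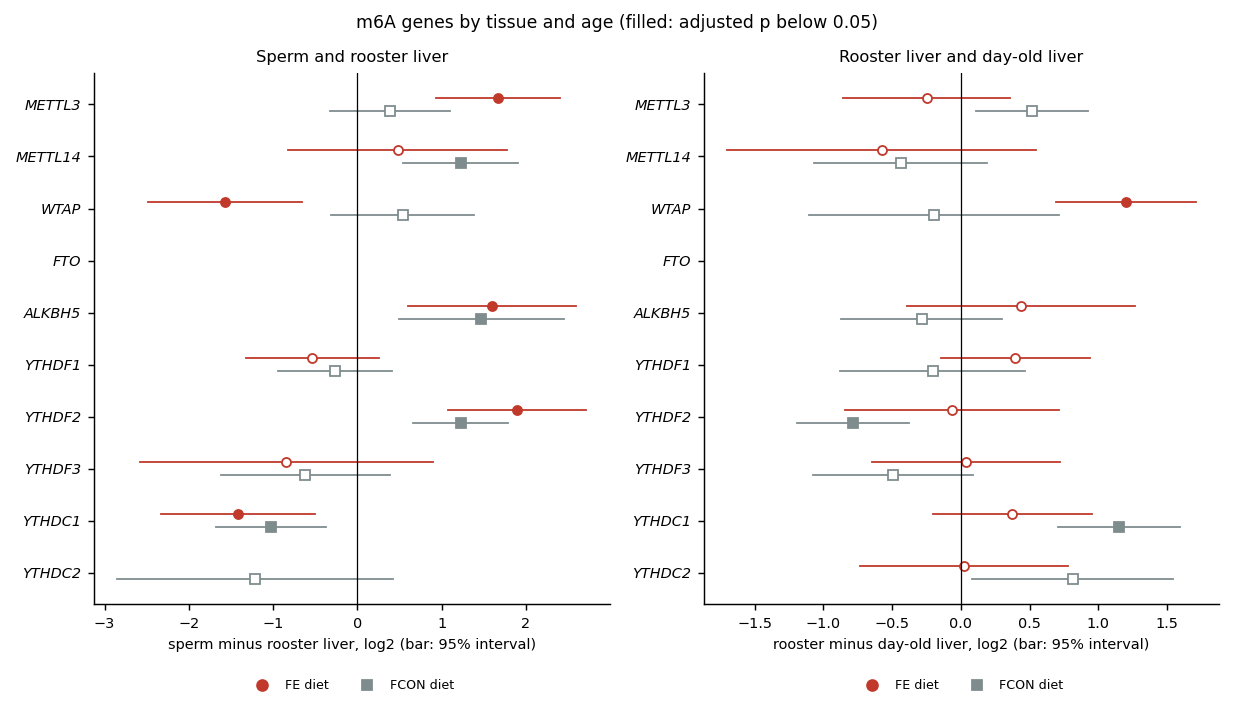
Left, sperm minus rooster liver; right, rooster liver minus day-old liver, in log2 units with 95% intervals, for libraries of the FE diet (circles) and the FCON diet (squares). Filled symbols have an adjusted p below 0.05. ALKBH5 and YTHDF2 lie to the right of 0 and YTHDC1 to the left under both diets on the left side, and WTAP (1.20, FE) and YTHDC1 (1.15, FCON) are the filled points above 0 on the right side.

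Rooster and day-old livers were compared within each diet, between libraries labelled rooster liver and the chick pools of the same diet group. Under FE, WTAP was higher in roosters by 1.20 log2 (SE 0.22, adjusted p = 0.00618), the only call among 9 tested, against 27.4% of 9847 genes (12.8% higher, 14.7% lower). It was called without any 1 library (1.06 to 1.30). With library totals alone it stood at 0.35 (adjusted p = 0.519), where the median of all genes was -0.92. WTAP and YTHDF1 (0.40, adjusted p = 0.245) did not overlap on the scale of this fit, against 47.3% of genes. The 3 FE rooster libraries behind this value are the same that set WTAP apart in the diet and tissue comparisons. With library totals alone METTL3 was called lower (-1.19, adjusted p = 0.0222). On the TMM scale METTL3 (-0.25), METTL14 (-0.58), ALKBH5 (0.44), YTHDC1 (0.38), YTHDF2 (-0.06), YTHDF3 (0.04) and YTHDC2 (0.03) did not pass. All 8 macrophage markers (median 2.79 log2) and all 5 tested T and NK cell markers (median 5.03) were called higher in these roosters, and of 11 hepatocyte markers 4 were called lower and 1 higher. The T and NK cell markers summed to 322 to 426 scaled CPM in FE roosters and 4.48 to 5.08 in FE chicks, where ZAP70 was at 0, and the macrophage markers to 850 to 928 in FE roosters and 78.3 to 209 in FE chicks, with none at 0. Nuclear rRNA took 32.8 to 60.5% of the counts in FE roosters and 4.70 to 20.4% in FE chicks. W genes had 0 to 2.07 CPM in FE roosters, against 2.59, 1299 and 9.34 in the FE chick pools. Age therefore cannot be told apart from the rRNA share and the mix of cells here. The part of these in the WTAP level was not tested.

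Under FCON, YTHDC1 was higher in roosters by 1.15 log2 (SE 0.19, adjusted p = 0.00690) and YTHDF2 was lower (-0.78, SE 0.17, adjusted p = 0.0172). They are 2 of 9 tested members, against 29.4% of 10339 genes (13.8% higher, 15.6% lower), and 5 members did not overlap, against 53.4%. The YTHDC1 call held without any 1 library (1.04 to 1.25, adjusted p = 0.00334 to 0.0409). The YTHDF2 call was lost without rooster FCON replicate 1 (adjusted p = 0.125), 2 (0.128) or 3 (0.118), with replicate number as a block (0.0758) and with all 18 libraries in the fit (0.150). With library totals alone YTHDF2 stood at -0.31 (adjusted p = 0.249), where the median of all genes was 0.47, and with limma at -0.25 and -0.29. METTL3 stood at 0.52 (adjusted p = 0.0607) and passed without chick pool 2 (0.63, adjusted p = 0.0300) or 3 (0.53, adjusted p = 0.0427), with DESeq2 (adjusted p = 0.0202), with upper-quartile scaling (0.0420), with library totals alone (1.00, adjusted p = 0.00546) and with both limma fits. YTHDC2 stood at 0.81 (adjusted p = 0.0901) and passed without chick pool 3 (1.16, adjusted p = 0.00776), with library totals alone (1.30, adjusted p = 0.0215) and with both limma fits. METTL14 stood at -0.44 and passed without chick pool 3 (-0.62, adjusted p = 0.0477). YTHDF3 (-0.49), ALKBH5 (-0.28), YTHDF1 (-0.20) and WTAP (-0.19) did not pass. Whether YTHDC1 or YTHDF2 differ by age more under FCON than under FE is the same contrast as the difference of diet effects above. Neither passed there on the TMM scale, and YTHDC1 was called with library totals alone and with both limma fits.

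Other values moved with age under FCON too. Libraries labelled rooster liver FCON had 1015 to 1117 CPM of W genes, against 8.09, 963 and 4.14 in the FCON chick pools. Of 5 tested T and NK cell markers 4 were called higher in roosters, with a sum of 97.8 to 100.3 scaled CPM, against 4.57 to 11.6 in chicks, where IL7R was at 0. Of 8 macrophage markers 3 were called higher, with 577 to 592 in roosters and 100.5 to 254 in chicks, none at 0. Of 11 hepatocyte markers 2 were called higher and 1 lower, 27.3% in all, near the 29.4% of all genes called in this comparison. Nuclear rRNA took 3.02 to 8.75% of the counts in FCON roosters and 16.4 to 29.1% in FCON chicks. Age therefore cannot be told apart from the rRNA share and the mix of cells here, nor fully from the W counts. The part of these in the YTHDC1 and YTHDF2 levels was not tested.

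Of the wider list, 2 readers of the IGF2BP family, IGF2BP3 and IGF2BP1, were lower in roosters under both diets, and the third, IGF2BP2, did not pass. IGF2BP3 had 0.176, 0.303 and 0.477 scaled FPKM in FE roosters, against 13.6, 11.1 and 13.0 in FE chicks (-5.22 log2, adjusted p = 2.56e-04). FCON roosters had 2.58, 2.57 and 2.45, against 9.58, 10.8 and 12.5 in FCON chicks (-2.19, adjusted p = 0.00137). IGF2BP1 was lower in roosters as well (-2.56 under FE, adjusted p = 0.00669, and -2.30 under FCON, adjusted p = 0.00158). IGF2BP2 lay on the other side of 0 (0.98 under FE, adjusted p = 0.0747, and 0.44 under FCON, adjusted p = 0.0910). Under FE 1 of 37 wider genes was called higher in roosters (AHCY, 1.06) and 3 lower, the third being LRPPRC (-0.99), 10.8% in all, against 27.4% of all genes. Under FCON 1 was called higher (ZC3H13, 0.62) and 6 lower, among them SRSF10 (-0.82) and LRPPRC (-0.85), 18.9% in all, against 29.4% of all genes. VIRMA, RBM15, CBLL1 and METTL16 passed under neither diet, with values between -0.83 and 0.34.

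Ratios of 2 members inside a library do not depend on its scale, and they are given as description without a test. WTAP stood at 0.475, 1.04 and 0.889 of METTL3 in FE rooster livers, against 0.116, 0.253 and 0.129 in FCON rooster livers. In the other 12 libraries the ratio lay between 0.0340 and 0.360, so the FE rooster livers were above all others. METTL14 stood at 0.0506, 0.0346 and 0.0402 of METTL3 in FE sperm, against 0.157, 0.0945 and 0.124 in FCON sperm, with no overlap. In FE rooster livers that ratio spread over 0.0316, 0.205 and 0.0829, against 0.0646, 0.0669 and 0.0695 in FCON rooster livers.

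Within each diet the ratio of YTHDF1 to YTHDF2 parted sperm from rooster liver. It parted sperm from day-old liver under FE but not under FCON. YTHDF1 stood at 0.250, 0.225 and 0.643 of YTHDF2 in FE sperm, against 1.83, 2.46 and 1.35 in FE rooster livers. In FCON sperm it stood at 0.292, 0.740 and 0.371, against 1.31, 1.28 and 1.14 in FCON rooster livers. Day-old livers had 1.02, 2.20 and 1.06 (FE), against 0.700, 0.601 and 1.19 (FCON). YTHDF1 thus exceeded YTHDF2 in all 6 rooster livers and in none of the 6 sperm libraries. YTHDF3 stood at 0.0289 to 0.372 of YTHDF2 in FE sperm and at 0.205 to 0.398 in FCON sperm. The lowest of these rests on 15 counts of YTHDF3. Rooster livers had 0.787 to 2.04 (FE) and 0.935 to 1.05 (FCON). Day-old livers had 0.784 to 1.93 (FE) and 0.663 to 1.07 (FCON), so this ratio was lower in sperm than in every liver library.

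**Figure D4:**
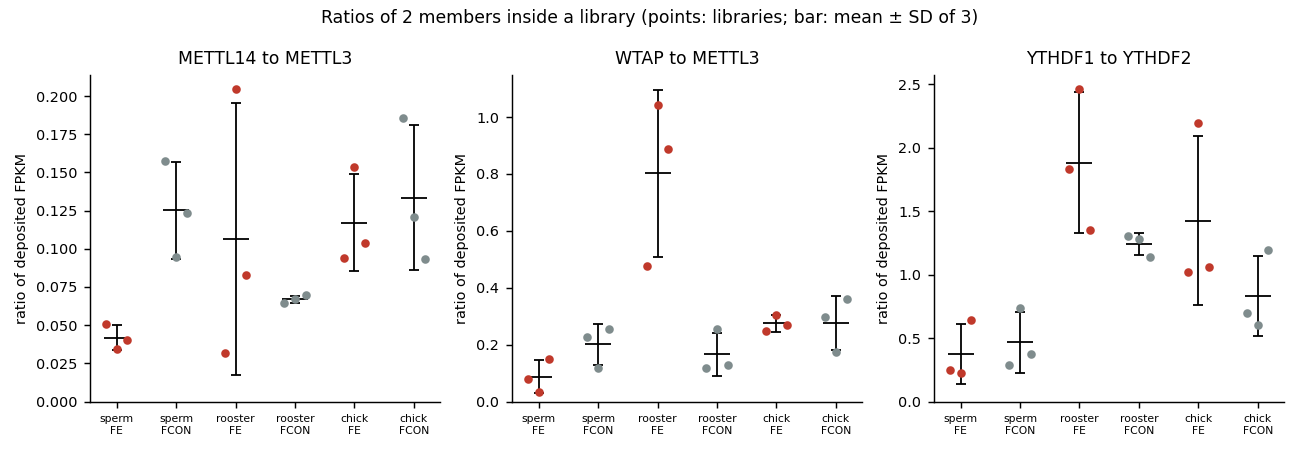
Ratio of the deposited FPKM of 2 m6A genes in each library (points, FE red and FCON grey) with mean ± SD of 3, on linear axes from 0, for sperm, rooster liver and day-old liver (chick). WTAP to METTL3 is highest in the FE rooster livers (0.475 to 1.04), METTL14 to METTL3 is lower in FE sperm (0.0346 to 0.0506) than in FCON sperm (0.0945 to 0.157), and YTHDF1 to YTHDF2 is above 1 in all rooster livers and below 1 in all sperm libraries.

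Other genes ran alongside 3 of the members over the 6 group means, measured as the mean absolute difference of centred log2(CPM + 1) among 10812 genes. The nearest to METTL3 were ADCY9 (0.0736), ERO1A (0.0758) and ERICH1 (0.0829). Nearest to ALKBH5 were RNF115 (0.0582), PNKD (0.0596) and PIH1D2 (0.0710), all with their highest mean in FE sperm, as ALKBH5 had. Nearest to YTHDC2 were SP3 (0.0673), WDR26 (0.0707) and STRBP (0.0835), with their lowest mean in FE sperm. With 6 points that share libraries these are a description only.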

How the data were processed

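The authors' deposited table holds 2 units per library, both used here: estimated counts (deposited as whole numbers) and FPKM, relative to the library total including 37 nuclear rRNA genes. Per the submitters' processing notes cutadapt, HISAT2 and StringTie were used. Tool versions, genome build and strand setting were not stated. Coordinates are those of the deposited table. RefSeq gene names (GRCg7b) matched 19402 gene IDs.

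edgeR 4.0.16 (R 4.3.3) with TMM scaling and its quasi-likelihood test was fitted on the estimated counts of each comparison's libraries, over all genes with FPKM of at least 1 in at least 3 of them. A gene was called at a Benjamini-Hochberg adjusted p below 0.05 over all tested genes. SE and 95% intervals are of the log2 difference. Groups, 3 libraries each, were taken from the labels, and p-values measure only the spread between these libraries. Some values of the rooster liver FCON libraries lay close together. Their erythroid markers summed to 368 to 376 scaled CPM, against 298 to 824 in rooster liver FE, while their stellate and fibroblast markers spread over 207 to 299. That they are separate birds rests on the labels alone. The fits were also run on simulated counts drawn from the fitted model, with few genes changed. That run cannot test the assumption that most genes are unchanged. Alternatives were DESeq2 1.42.0, upper-quartile scaling, library totals alone, no filter, limma 3.58.1 on log2(FPKM + 1) and log2(FPKM + 0.1), all 18 libraries in 1 fit, the replicate block, and leaving out each library or both W-rich pools. Figures were drawn with Python 3.11.15 and matplotlib 3.10.9.

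The members and lists were chosen with earlier results of these data known. Named genes are the 10 members, the 4 wider genes with the smallest p in each comparison, and VIRMA, RBM15, ZC3H13, CBLL1, METTL16 and IGF2BP1 to IGF2BP3 where tested. The 3 enzymes of DNA in the closing observations were chosen after their values were seen, and the genes nearest to METTL3, ALKBH5 and YTHDC2 are the 3 nearest of each. In sperm, libraries of the same number deviated together across diets (correlations 0.180, 0.221 and 0.287, from the data and not the labels), and the blocked fit also called 0 members. No other comparison showed this in every pair.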

Additional observations from a re-analysis of the deposited data

How the results depend on the processing

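The count of members called was 0 under every setting for day-old livers and for sperm by diet, and moved elsewhere. For rooster livers by diet (2 calls) it was 1 without a filter on low values, with all 18 libraries in the fit and with the replicate block, 1 to 3 without 1 library each, 3, all lower in FE, with library totals, and 4, all lower, with limma on either FPKM scale. There YTHDF1 reversed to -0.36 and -0.43 (-0.40 with library totals) and YTHDF2 to -0.74 and -0.96, where the median of all genes stood at -0.76 and -1.01. For the difference of diet effects (0 calls) it was 1 with DESeq2, 3 with library totals and with either limma fit, and 0 to 1 without 1 library. For rooster against day-old liver it was, under FE (1 call), 2 with either limma fit, both lower, and 1, METTL3 lower in place of WTAP higher, with library totals, and under FCON (2 calls) 1 with all 18 libraries or the replicate block, 3 with DESeq2, upper-quartile scaling, library totals and either limma fit, and 1 to 5 without 1 library. For sperm against rooster liver under FE (5 calls) it was 0 with library totals, 2 with limma on log2(FPKM + 1) and 1 with log2(FPKM + 0.1). Under FCON (4 calls) it was 2 with library totals (both lower) or the replicate block, 4 and 3 with limma, all lower, and 1 to 5 without 1 library. Over single members 1049 alternative values were computed, of which 828 kept direction and side of the threshold, 112 changed sign without a call, 49 gained a call, 55 lost it and 5 reversed. Over all genes the rooster diet comparison gave 4269 calls (2101 higher), 5216 (285 higher) with library totals, 6228 (306 higher) and 5749 (271 higher) with limma, and 896 with all 18 libraries. With 3 libraries a group, and FTO and YTHDC2 near 0 in sperm, small differences could not be detected.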

Other observations

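Enzymes linked to the same methyl mark in DNA were also in the wider list. N6AMT1 had 17.0, 18.1 and 19.0 scaled FPKM in FE sperm, against 6.98, 5.05 and 3.71 in FE rooster livers, and was called higher in sperm (1.80 log2, adjusted p = 0.00348, edgeR). FCON sperm had 28.0, 22.2 and 26.3, against 5.51, 6.15 and 6.06 in FCON rooster livers (2.12 log2, adjusted p = 7.78e-04). On this scale all 3 FE sperm libraries were below all FCON sperm libraries, and that difference did not pass (-0.58 log2, adjusted p = 0.902, edgeR). ALKBH1 ranged over 2.83 to 5.02 scaled FPKM in FE sperm and 1.30 to 2.68 in FCON sperm (0.84 log2, adjusted p = 0.902). METTL4 lay at or below 0.263 scaled FPKM in every library and was not tested.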
